A study of Mus musculus with 2 samples.

Results

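The 39 genes described here encode the enzymes and carriers that burn fatty acids in mitochondria and peroxisomes, together with enzymes that make or split acyl-CoA. They were chosen by gene name from the scanner tables. All 39 of 39 were found among 31788 gene names, and all 39 were well above background on both arrays. They comprise 18 mitochondrial members, 9 peroxisomal members and 12 acyl-CoA and accessory members. Mouse primary hepatocytes, which are liver parenchymal cells taken into culture, received G0s2 siRNA in 1 sample and control siRNA in the other. Both siRNAs were used at 50 pmol with a lipid transfection reagent in 24-well plates, in medium with 10% serum, and RNA was taken after 24 hours. The mouse strain and age and the siRNA sequences are not given in the sources used here. Each group was measured on 1 array, so the differences below compare 2 arrays, have no replicate check and carry no p-value.

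Fatty acid oxidation starts when a fatty acid is joined to coenzyme A. Long-chain acyl groups cross into mitochondria as carnitine esters and are then shortened in repeated cycles of dehydrogenation, hydration, a further dehydrogenation and thiolysis, while peroxisomes shorten very long and branched chains. In liver many of these genes are activated by the nuclear receptor PPAR-alpha, and the G0s2 protein blocks ATGL, a lipase that frees fatty acids from stored triglyceride.

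A level is the log2 processed signal of a probe minus that of the array's 75th percentile, which was 728 on the G0s2 siRNA array and 418 on the control siRNA array. Differences are G0s2 siRNA minus control siRNA, and the error given after ± is the scanner's own signal error, which does not cover how cultures or RNA preparations vary. The signal of G0s2 itself was 103 on the G0s2 siRNA array and 383 on the control siRNA array, a difference of -2.70 ± 0.21, or 6.50-fold lower. All 16 of 16 hepatocyte markers were well above background on both arrays, with a median difference of 0.31. Their summed scaled signal was 2792 on the G0s2 siRNA array and 2353 on the control siRNA array. Only Cps1 among them was at least 2-fold apart, with levels of 3.08 with G0s2 siRNA and 0.12 with control siRNA, a difference of 2.96. The summed scaled signal of 7 cholangiocyte markers was 5.06 with G0s2 siRNA and 10.5 with control siRNA, with 6 of 7 above background on both. Their median difference was -1.03. The sum of 8 endothelial markers was 7.67 with G0s2 siRNA and 9.95 with control siRNA (7 of 8). Kdr, the brightest of them, differed by -0.51, while the median difference of those measured was 0.46. For 10 macrophage markers the sum was 5.46 with G0s2 siRNA and 5.27 with control siRNA (10 of 10), with a median difference of 0.11. For 8 stellate cell markers it was 2.23 with G0s2 siRNA and 1.13 with control siRNA (4 of 8), with a median difference of 0.59. The stellate sum rests mostly on Dcn, with levels of 0.94 with G0s2 siRNA and -0.17 with control siRNA. Not well above background on either array were Epcam among the cholangiocyte markers, Tek among the endothelial ones and Des, Lrat, Pdgfrb and Reln among the stellate ones, while others such as Krt19, Krt7, Sox9, Pecam1, Cdh5, Stab2 and Lyve1 were above it on both. The part of these marker differences in the values below was not tested, and fewer cells of a type cannot be told apart from less RNA per cell.

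The members' differences were about as large as those of all genes, with a median size of 0.32 for the members and 0.34 over all genes. Of 39 members, 1 was at least 2-fold higher with G0s2 siRNA, where 4.88% of 18126 measured genes were, and 1 was at least 2-fold lower, where 5.23% were, so that 2 of 39 were apart either way, against 10.1% of all genes. The median difference of the members was -0.10, against -0.03 over all genes, and 28 members (71.8%) differed by less than 0.5, where 66.4% of all genes did. Relative to the 75th percentile 18 members were positive, where 47.7% of all genes were, and 21 negative, whereas centring on spike-in probes moved the median of all genes to 1.36 and left 38 of 39 members positive. Directions are therefore given relative to the array's 75th percentile throughout.

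**Figure D1:**
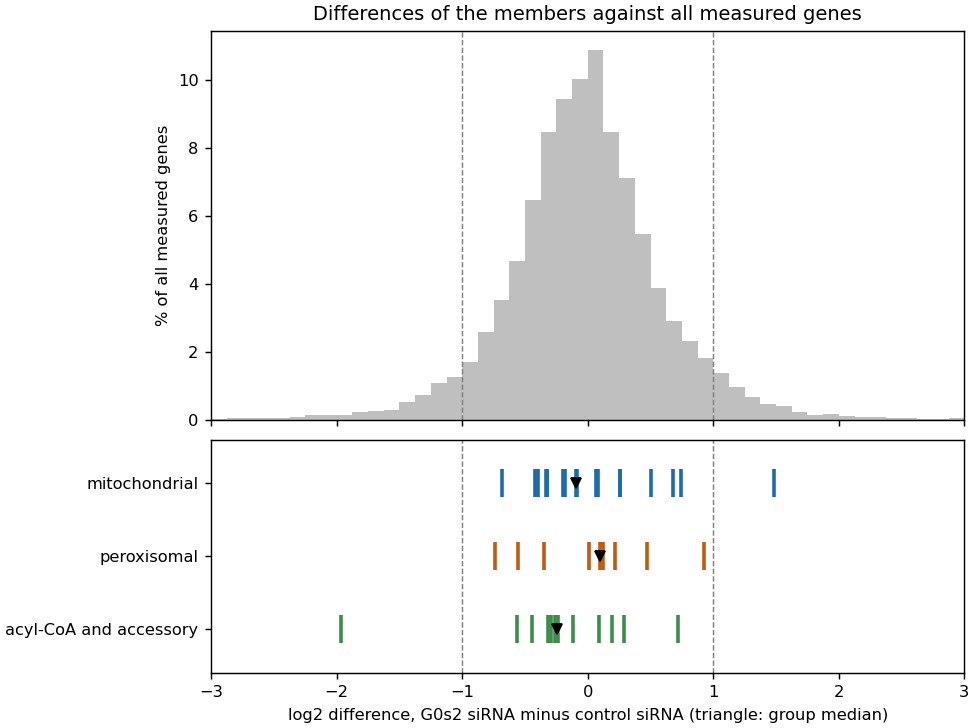
Upper panel, percentage of 18126 measured genes by log2 difference (G0s2 siRNA minus control siRNA). Lower panel, each member as a tick with the median of its group as a triangle, and dashed lines at 2-fold. Of the members, 1 lies beyond the upper line and 1 beyond the lower line.

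The carnitine shuttle held the 2-fold higher member. The signal of Slc25a20, the carnitine-acylcarnitine carrier of the inner mitochondrial membrane, was 1374 on the G0s2 siRNA array and 282 on the control siRNA array. Its level was 0.92 with G0s2 siRNA and -0.57 with control siRNA, a difference of 1.48 ± 0.20, or 2.80-fold higher. The value rests on 1 probe at chr9:108585399-108585458 of mm9 on the plus strand, from position 867 of the transcript as numbered in the scanner tables. Exon and UTR annotation of that build was not used here. Its 60 bases are shown because the largest increase among the members rests on them, and they are open in 1 of 3 reading frames.
Slc25a20 probe: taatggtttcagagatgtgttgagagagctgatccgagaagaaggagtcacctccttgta

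Cpt1a, the liver form of the outer-membrane enzyme that makes long-chain acylcarnitines, was also higher, by less than 2-fold. Its signal was 5172 with G0s2 siRNA and 1860 with control siRNA, averaged over 10 spots of 1 probe per array whose log2 SD was 0.05 and 0.06. The difference was 0.68 ± 0.20, or 1.60-fold, and a dimmer probe of the gene gave 1.08 ± 0.21. Both probes were thus higher with G0s2 siRNA, and they lie at positions 3941 and 2627 of the transcript.

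For Cpt2, the matrix enzyme that turns acylcarnitines back into acyl-CoA, the probes went opposite ways. The brighter probe, at position 2286, had a signal of 7231 with G0s2 siRNA and 5201 with control siRNA, a difference of -0.32 ± 0.20. The other, at position 909, had 399 and 160 on the same arrays, a difference of 0.52 ± 0.21. No direction can be given for this gene. Crat, carnitine acetyltransferase, was dim, with signals of 53.5 on the G0s2 siRNA array and 29.4 on the control siRNA array, and a difference of 0.06 ± 0.28.

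**Figure D2:**
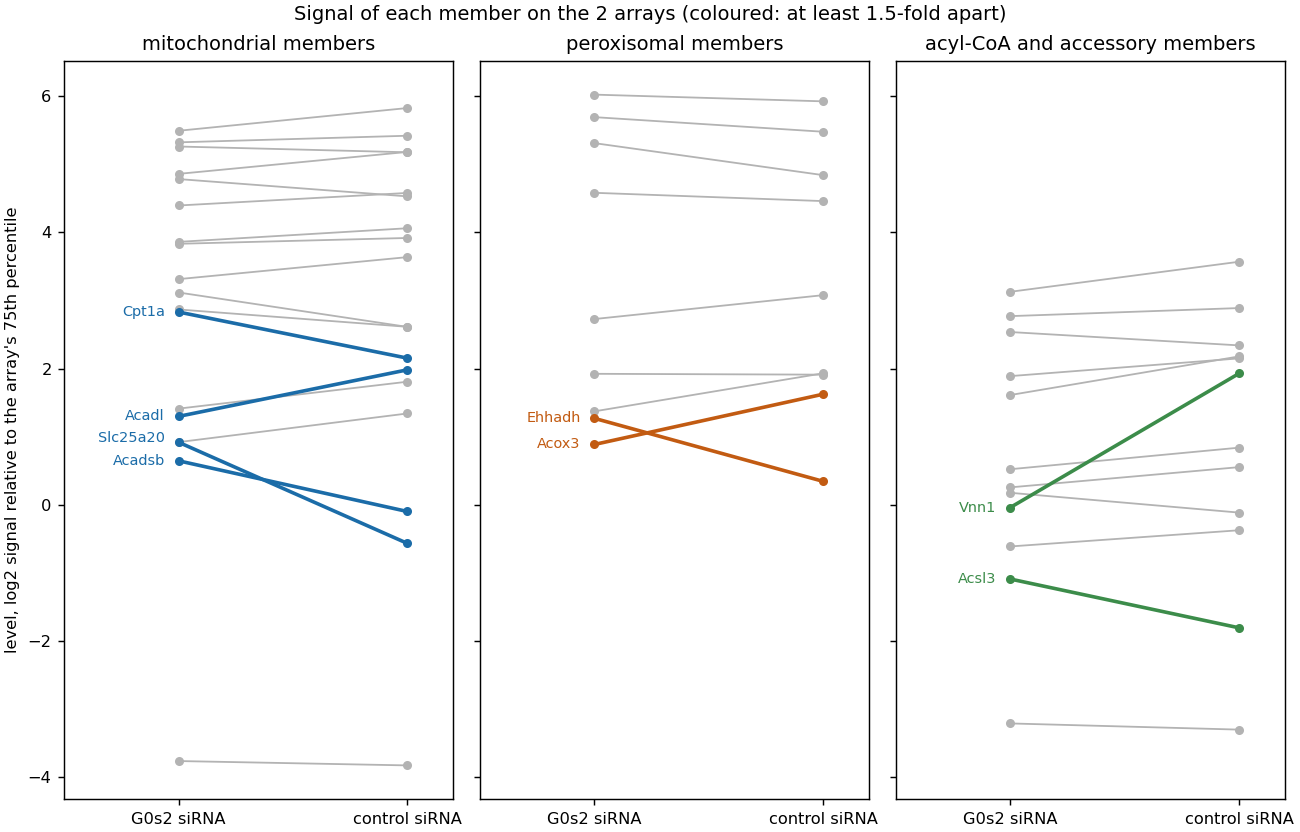
Level of each member (log2 signal relative to the array's 75th percentile) on the G0s2 siRNA array at the left and the control siRNA array at the right of each panel, joined by a line. Coloured and named genes were at least 1.5-fold apart, namely 5 higher and 3 lower with G0s2 siRNA. Levels of different probes are not comparable with each other.

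Of the acyl-CoA dehydrogenases, which take the first step of each mitochondrial cycle, 2 of 5 were positive, where 47.7% of all genes were. The signal of Acadl, the long-chain enzyme, was 1788 with G0s2 siRNA and 1651 with control siRNA, and its scaled difference was -0.68 ± 0.20, or 1.61-fold lower. Acadsb, which acts on short branched chains in isoleucine breakdown, had a signal of 1137 with G0s2 siRNA and 390 with control siRNA, a difference of 0.74 ± 0.20, or 1.67-fold higher. Acadl and Acadsb were therefore the members of this step furthest apart.
The very long-chain enzyme gene Acadvl had signals of 29106 and 17895 on the G0s2 siRNA and control siRNA arrays, a difference of -0.10. The medium-chain enzyme gene Acadm had 20022 and 9654 on those arrays, a difference of 0.25. Acads, for short chains, had 1935 and 1463, a difference of -0.40. All of these differences were under 2 scanner errors.

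The 6 genes of the later mitochondrial steps differed by -0.42 to 0.25, with a median of -0.14, and 66.4% of all genes lay within 0.5 of 0. Hadha and Hadhb encode the alpha and beta subunits of the trifunctional protein, which carries out hydration, dehydrogenation and thiolysis of long chains. The genes are neighbours on chromosome 5, with 272 bases between them in the RefSeq table of GRCm38.p6. Hadha had signals of 1376 with G0s2 siRNA and 1059 with control siRNA, a difference of -0.42 ± 0.20. Hadhb had 10362 and 6321 on the same arrays, a difference of -0.09 ± 0.20. The alpha subunit gene had the lower value by this scale, but the scanner error ranges of the pair overlapped. The Hadhb difference was smaller than its scanner error.
Hadh, the dehydrogenase for shorter chains, differed by 0.25, and Echs1, the matching hydratase, by -0.20. Acaa2, the mitochondrial thiolase, differed by 0.08, with a log2 SD between spots of 0.03 on the G0s2 siRNA array and 0.02 on the control siRNA array. Decr1, the reductase needed for unsaturated chains, differed by -0.32, and its other probe by -0.38.

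Etfa and Etfb, the subunits of the electron transfer flavoprotein that collects electrons from the dehydrogenases, differed by -0.18 and -0.33. A dimmer Etfa probe gave 0.25. Etfdh, which passes those electrons to ubiquinone, had a signal of 6310 with G0s2 siRNA and 2556 with control siRNA, a difference of 0.51 ± 0.20, or 1.42-fold higher. Over the 18 mitochondrial members the median was -0.09, with 8 positive and 10 negative, where 47.7% of all genes were positive. The median was 0.01 under normexp background correction and 1.31 with spike-in centring.

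**Figure D3:**
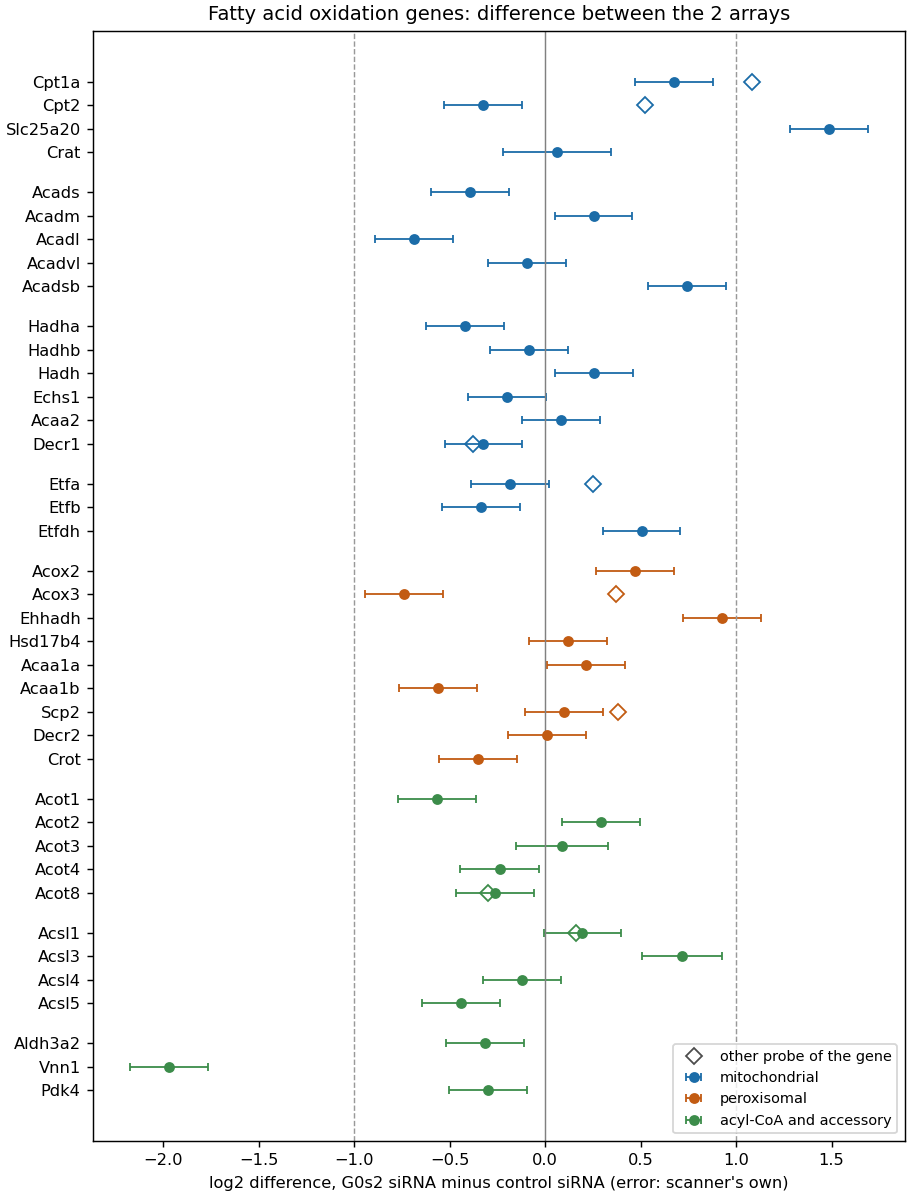
Log2 difference (G0s2 siRNA minus control siRNA) of each member in order of role, from its brightest probe, with bars for the scanner's own error. Open diamonds are other probes of the same gene, and dashed lines mark 2-fold. Slc25a20 at 1.48 and Vnn1 at -1.97 lie outside the lines, and the probes of Cpt2, Etfa and Acox3 lie on opposite sides of 0.

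Among the peroxisomal members 6 of 9 were positive, where 47.7% of all genes were. None was 2-fold apart, where 10.1% of all genes were, and the median was 0.10. All 9 were positive with spike-in centring, which moved the median of all genes to 1.36. Ehhadh, the L-bifunctional enzyme of hydration and dehydrogenation and a known PPAR-alpha target, had a signal of 1752 with G0s2 siRNA and 531 with control siRNA. Its difference was 0.93 ± 0.20, or 1.90-fold higher, just short of the 2-fold rule, and under normexp background correction it was 1.04. Hsd17b4, the D-bifunctional enzyme that acts on branched chains and bile acid intermediates, had 17411 and 9200 on the G0s2 siRNA and control siRNA arrays, a difference of 0.12. The pair of bifunctional enzymes thus differed unequally between the arrays.

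Acox2 and Acox3 are oxidases that start peroxisomal oxidation of branched chains. Acox2 had a signal of 28865 with G0s2 siRNA and 11982 with control siRNA, a difference of 0.47 ± 0.20. For Acox3 the brighter probe, at position 2108, had 1344 and 1289 on the same arrays, a difference of -0.74 ± 0.20, while the probe at position 3720 had 979 and 434, a difference of 0.37 ± 0.20. The gap of 1.11 between the Acox3 probes was the widest among the 8 members with a further probe above background on both arrays. The median gap over those 8 members was 0.35, and over 3454 genes with several such probes it was 0.27.
The brighter Acox3 probe, which is open in 1 reading frame, is shown, since the direction of the gene depends on which of its probes is read. It lies at chr5:35952411-35952470 on the plus strand of mm9.
Acox3 probe at position 2108: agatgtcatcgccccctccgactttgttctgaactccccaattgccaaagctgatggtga

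Acaa1a and Acaa1b are closely related peroxisomal thiolase genes, so signals may be shared between them and their separate values are uncertain. Acaa1a had a signal of 37611 with G0s2 siRNA and 18638 with control siRNA, a difference of 0.21 ± 0.20. Acaa1b had 1882 and 1594 on the same arrays, a difference of -0.56 ± 0.20, or 1.47-fold lower. The pair lay on opposite sides of 0. Scp2, whose long form is a thiolase for branched chains, differed by 0.10, and its dimmer probe by 0.38. Decr2, the peroxisomal dienoyl-CoA reductase, differed by 0.01, and Crot, which makes carnitine esters of medium chains for export, by -0.35.

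The acyl-CoA and accessory members included the 2-fold lower gene, where 5.23% of all genes were 2-fold lower. Of the 12, 4 were positive and 8 negative, where 47.7% of all genes were positive. The group median was -0.25, or 1.15 with spike-in centring. Vnn1, a pantetheinase that splits a breakdown product of coenzyme A and a known PPAR-alpha target in mouse liver, had a signal of 707 with G0s2 siRNA and 1591 with control siRNA. Its level was -0.04 with G0s2 siRNA and 1.93 with control siRNA, a difference of -1.97 ± 0.20, or 3.91-fold lower. Its processed signal before scaling was also lower on the G0s2 siRNA array, although that array was the brighter one. Vnn1 was the only member still negative with spike-in centring, at -0.57. The value rests on 1 probe, at chr10:23624524-23624583 of mm9, from position 1790 of the transcript.

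Thioesterases split acyl-CoA into free acid and coenzyme A. The genes Acot2, Acot1, Acot4 and Acot3 lie in a row on chromosome 12 and are closely related, so their separate values are uncertain. Acot1, the cytosolic form, had a signal of 2222 with G0s2 siRNA and 1893 with control siRNA, a difference of -0.57 ± 0.20, or 1.48-fold lower. Acot2, the mitochondrial form, had 821 and 386 on the same arrays, a difference of 0.29 ± 0.20. The cytosolic and mitochondrial forms were thus on opposite sides of 0. The peroxisomal forms Acot3, Acot4 and Acot8 differed by 0.09, -0.24 and -0.26, and the other Acot8 probe by -0.30.

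Of the long-chain acyl-CoA synthetases, 2 of 4 were positive, where 47.7% of all genes were. Acsl3, a form found on the endoplasmic reticulum and lipid droplets, had a signal of 341 with G0s2 siRNA and 119 with control siRNA, a difference of 0.72 ± 0.21, or 1.64-fold higher. Acsl5 had 6356 and 4961 on the same arrays, a difference of -0.44 ± 0.20. Acsl1, the main form of liver, differed by 0.20 and by 0.16 with its other probe, and Acsl4, which prefers arachidonate, by -0.12. Pdk4, a kinase that shuts off pyruvate dehydrogenase when fat is burned, had 868 with G0s2 siRNA and 613 with control siRNA, a difference of -0.30 ± 0.20. Aldh3a2, fatty aldehyde dehydrogenase, differed by -0.32.

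At a rule of 1.5-fold, 5 members were higher, where 13.0% of all genes were, and 3 were lower, where 14.5% were. The higher ones were Slc25a20, Ehhadh, Acadsb, Acsl3 and Cpt1a, and the lower ones Vnn1, Acox3 and Acadl. Acox3 is counted from its brighter probe, while its other probe gave 0.37. Differences over 2 scanner errors were seen in 7 members upward, where 16.4% of all genes passed that rule, and in 7 downward, where 19.1% did.

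**Figure D4:**
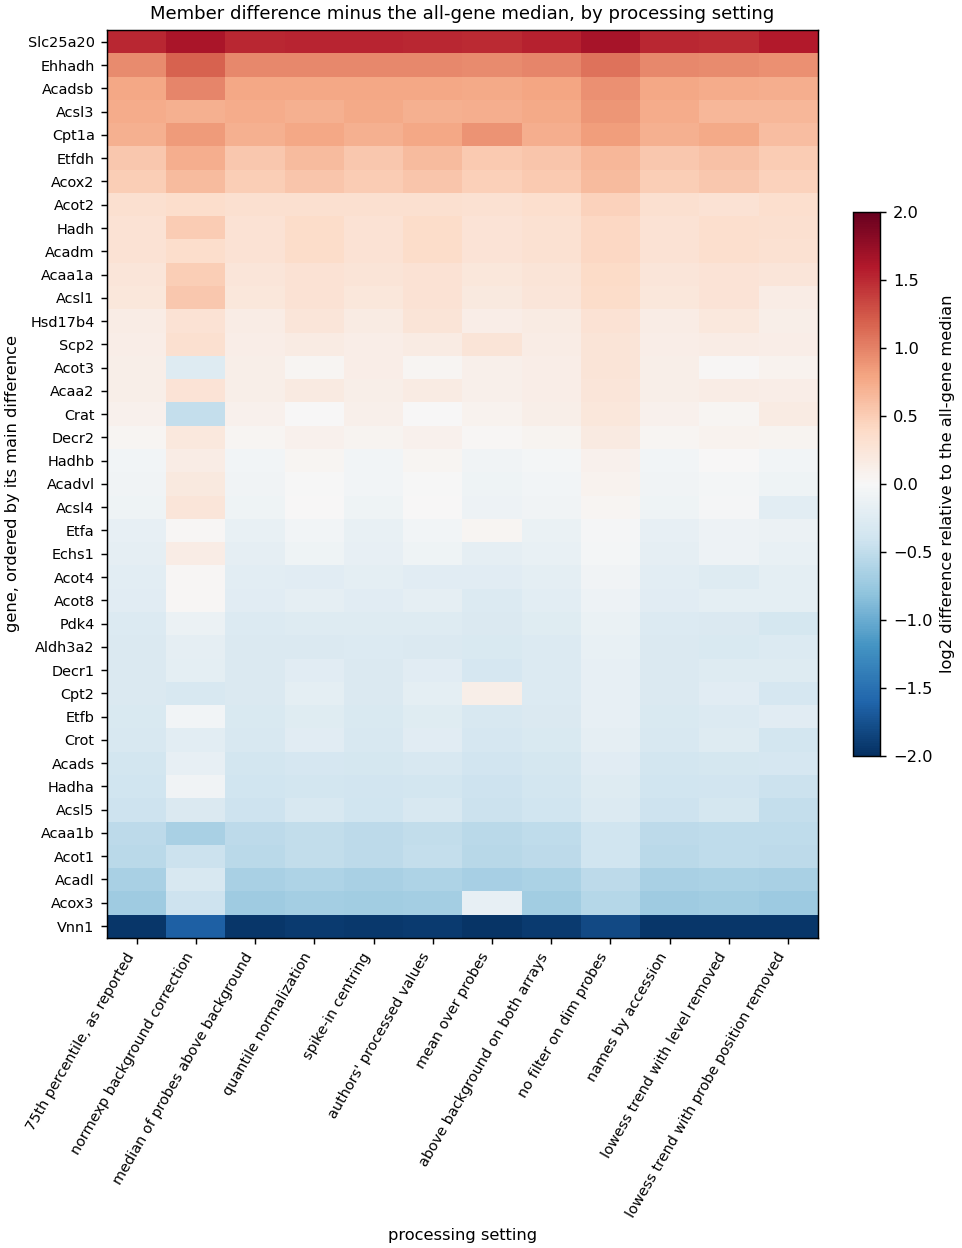
Log2 difference (G0s2 siRNA minus control siRNA) of each member relative to the median of all genes, as colour from blue (lower) to red (higher), with genes down the page and processing settings across. Slc25a20 lies between 1.49 and 1.65 and Vnn1 between -1.95 and -1.63 in the settings other than spike-in centring.

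PPAR-alpha binds as a pair with RXR to direct repeats of the hexamer AGGTCA spaced by 1 base. Promoter windows of 250 bases before the annotated start were given for 34 of the 39 members by RefSeq on GRCm38.p6, 37 windows in all. The hexamer AGGTCA, searched on both strands, was in 6 of 37 member windows (16.2%) and in 14.0% of all 32851 windows. The full repeat, AGGTCA on both sides of any 1 base, was in 0 member windows and in 0.0335% of all windows. A looser form, GGNCA, any 1 base and AGGTCA, which contains the hexamer, was in 1 member window, that of Acot4, and in 0.17% of all windows. A match describes letters in this window and is not a binding site. Promoters are shown for Slc25a20, which had the largest increase, and for Cpt1a and Acot4, which hold matches, with the matching letters in capitals (Cpt1a from 94 to 89 bases and Acot4 from 13 to 2 bases before the start, on the minus strand). They lie at chr9:108661886-108662135, chr19:3323051-3323300 and chr12:84038129-84038378, each on the plus strand of GRCm38.p6.
Slc25a20 promoter: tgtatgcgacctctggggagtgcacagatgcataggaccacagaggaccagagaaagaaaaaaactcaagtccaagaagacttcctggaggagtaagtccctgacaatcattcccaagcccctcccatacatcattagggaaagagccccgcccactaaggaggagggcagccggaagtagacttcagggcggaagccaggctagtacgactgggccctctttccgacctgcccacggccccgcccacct
Cpt1a promoter: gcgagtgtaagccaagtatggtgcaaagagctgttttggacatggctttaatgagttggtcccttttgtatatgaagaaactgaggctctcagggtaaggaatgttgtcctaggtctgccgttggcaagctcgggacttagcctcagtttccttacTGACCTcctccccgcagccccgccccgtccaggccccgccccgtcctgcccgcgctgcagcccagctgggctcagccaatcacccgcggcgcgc
Acot4 promoter: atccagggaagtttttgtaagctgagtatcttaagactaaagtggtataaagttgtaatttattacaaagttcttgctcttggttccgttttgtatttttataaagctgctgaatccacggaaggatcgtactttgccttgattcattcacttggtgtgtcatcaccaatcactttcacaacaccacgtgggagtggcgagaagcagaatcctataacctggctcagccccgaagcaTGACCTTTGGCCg

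Other genes of the pathway, peroxisome assembly included, were measured in 62 of 64 cases. At 2-fold, 2 genes were higher and 4 lower, where 4.88% and 5.23% of all genes were. The median was -0.15, or 1.25 with spike-in centring. The higher genes were Pex26, a peroxisome assembly gene, at 1.08 ± 0.20 and Acsm3, a medium-chain acyl-CoA synthetase gene, at 1.02 ± 0.21. The lower genes included Pex2, a ubiquitin ligase of peroxisomal import, with a signal of 417 with G0s2 siRNA and 799 with control siRNA, a difference of -1.74 ± 0.20. Pex7, the receptor for a class of peroxisomal proteins that includes thiolase, differed by -1.05, Ivd, isovaleryl-CoA dehydrogenase, by -1.11, and Acot6 by -1.08, although another Acot6 probe gave 0.15. Acsm3 and Pex7 were each under 2-fold in 4 of 10 other settings, quantile normalization and the authors' processed values among them, and Acot6 in 2, while Pex26, Pex2 and Ivd passed in all 10.

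Of 29 PPAR-alpha target genes outside the members, all measured, 4 passed 2-fold upward and 5 downward, where 4.88% and 5.23% of all genes did. The median was 0.14, or 1.54 with spike-in centring. The list includes G0s2, the targeted gene, which is counted among the lower ones, and shares Pex11a with the other pathway genes. Upward lay Mgll, which splits monoglycerides, at 1.40 (1.08 and 0.82 from other probes), Fitm2, a lipid droplet gene, 2.45-fold higher (0.32 in log2 from its other probe), Fabp2, a fatty acid binding protein, 2.14-fold higher, and Cyp4a14, a fatty acid omega-hydroxylase, at 1.02. The lower genes included Fgf21, a liver hormone gene, with a signal of 44.6 with G0s2 siRNA and 143 with control siRNA, a difference of -2.48 ± 0.24. Creb3l3, a transcription factor that acts with PPAR-alpha on Fgf21, differed by -1.37, and Fabp3 by -1.25. Under normexp Cyp4a14 and Fabp3 did not reach 2-fold, and Fitm2 did not when its probes were averaged.

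Regulators of the pathway were measured in 35 of 36 cases. Of these, 2 passed 2-fold upward and 2 downward, where 4.88% and 5.23% of all genes did. This list shares Creb3l3, Ppargc1a, Lpin2 and Acacb with the PPAR-alpha targets, so Creb3l3 is counted in both. The median was 0.10, and it was -0.06, with 0 genes 2-fold higher, when a trend with probe position was removed. With spike-in centring 28 were higher and 0 lower, as were 14612 and 52 of 18505 genes. Ppara itself, which encodes PPAR-alpha, had a difference of 0.94 ± 0.20 from its brightest probe, but 0.62 and 0.06 from its other probes. Hnf4a, a liver nuclear receptor gene, differed by 1.04 and Lpin1, which encodes a PPAR-alpha coactivator, by 1.02. Neither passed after removal of the position trend, and Lpin1 did not pass under normexp either. Pparg had a signal of 219 with G0s2 siRNA and 497 with control siRNA, a difference of -1.99 ± 0.21.

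**Figure D5:**
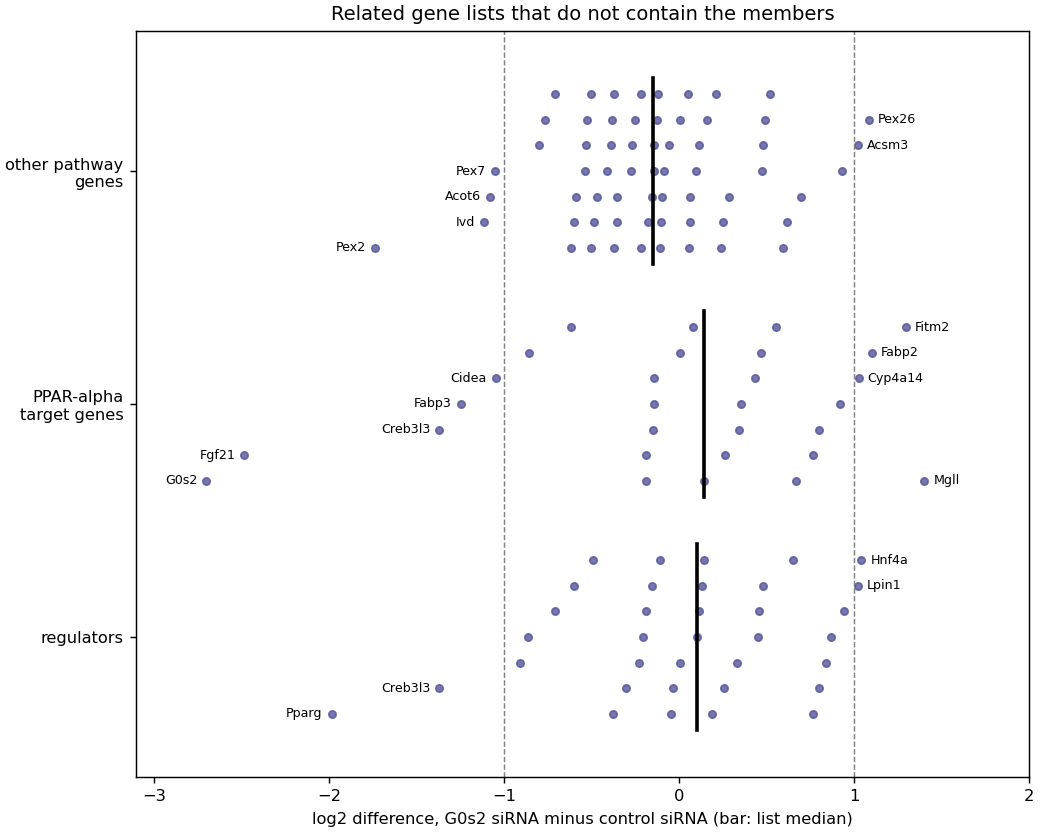
Log2 difference (G0s2 siRNA minus control siRNA) of 62 other pathway genes, 29 PPAR-alpha target genes and 35 regulators, 1 point per gene, with list medians as bars and names for genes at least 2-fold apart. Height within a list only spreads the points. Every list has genes beyond both dashed 2-fold lines.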

How the data were processed

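RNA of 2 cultures was hybridised to 1-colour arrays, 0.5 ug per array. The deposited scanner tables hold spot intensity values from Agilent Feature Extraction 10.7.1.1, background-subtracted and detrended within the array, per the file headers, with probe coordinates on mm9. The authors' series table holds intensity values in which both columns share 1 distribution, and it served only as an alternative. Both arrays lay on 1 slide with 1 scan start, so position and group cannot be told apart.

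Control spots and outlier spots were left out, spots of a probe averaged, and log2 processed signal minus each array's 75th percentile taken. A gene is its brightest probe, and 18126 genes were measured, of which 976 were dim on the control siRNA array and 352 on the G0s2 siRNA array and enter as bounds. With 1 array per group no test was made, and the number of arrays limits the precision. No spot was saturated. For genes outside the members, 7 names came from RefSeq accessions. Members and lists were chosen with earlier results of these data known. Named were G0s2, all members, and per related list up to 4 genes each way at 2-fold, plus Ppara, chosen after its value was seen. The calculation was run on simulated data with large planted changes and little noise, which checks the code and not the calls made here. Python 3.11.15, numpy 2.4.6, pandas 2.3.3, statsmodels 0.14.6, R 4.3.3 and limma 3.58.1 were used.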

Additional observations from a re-analysis of the deposited data

How the results depend on the processing

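Slc25a20 stayed between 1.48 and 1.58 and Vnn1 between -1.97 and -1.77 under the 10 settings other than spike-in centring. All settings reuse the same 2 arrays. Both genes have 1 probe, above background on both arrays. Averaging over probes or changing the filter on dim probes therefore could not move them, and naming by accession did not. Of 39 members, 8 (Acadvl, Acot3, Acsl4, Cpt2, Crat, Echs1, Etfa and Hadhb) changed sign under at least 1 of the 10 settings. The share of all genes that changed sign was not computed. With spike-in centring the members' median was 1.30 with 32 at least 2-fold higher and 0 lower, that of all genes 1.36 with 14612 higher and 52 lower (99.6% higher, against 48.3% in the values reported), and G0s2 differed by -1.30. The 8 spike-in probes differed by -0.97 to -0.02, and their amounts are unknown here. Under normexp with an offset of 50, 2 members were at least 2-fold higher, Ehhadh passing at 1.04, with 420 genes higher and 558 lower and G0s2 at -2.36. Without a filter on dim probes 2156 genes were higher and 1857 lower. Those settings shifted the median of all genes by -0.11 and -0.14. A 1.5-fold rule gave 5 and 3 members, and 2361 and 2627 genes, higher and lower, and a rule of over 2 scanner errors, chosen after seeing the data, 7 and 7 members. The cause was not tested, except that a lower rule passes more genes. Removing a lowess trend (span 0.3) with level or probe position, or the members whose probes disagreed in sign, all chosen after seeing the data, left 1 member higher and 1 lower at 2-fold. No paired analysis was possible because each group has 1 array, and no array could be left out.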
